A study of Mus musculus with 12 samples.

Results

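The genes described here are 6 members of the LY6 family of surface proteins, Ly6a, Ly6c1, Ly6c2, Ly6d, Ly6e and Lynx1, of 22561 genes in the count table of mouse follicular (FO) B cells. They were chosen by gene symbol, with their counts and fold changes under these stimuli already known, so their differences between the conditions are given as a description with no test. Other genes of the family, region and GPI anchor pathway are given with p-values corrected over all genes, but their lists too were drawn up with earlier results of these data known.

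FO B cells were sorted from spleens of 10-week-old C57BL6 mice, and RNA was measured in 12 samples by BRB-seq, a pooled 3′ method that counts molecules by unique molecular identifiers (UMIs). There were 3 samples in each of 4 groups, which were unstimulated cells and cells given IFNα, CpG or both for 12 h. CpG is a synthetic DNA that acts through TLR9. The sources used here do not say whether the unstimulated cells spent those hours in culture, so time in culture and stimulation cannot be told apart in any comparison with them, nor do they say whether the 3 samples of a group came from separate mice, so p-values measure the spread between these samples, which may be technical. The deposited barcode list names the samples of each condition WT1 to WT3 without saying what the numbers mark.

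LY6 proteins are small, cysteine-rich molecules, and most are held on the outer cell surface by a glycosylphosphatidylinositol (GPI) anchor. Ly6a encodes Sca-1, best known from hematopoietic stem cells and activated lymphocytes. Ly6c1 and Ly6c2 encode the Ly6C antigen of monocytes, plasma cells and memory T cells, Ly6d marks commitment of lymphoid progenitors to the B lineage, Ly6e is an interferon-inducible gene that affects virus entry, and Lynx1 modulates nicotinic acetylcholine receptors.

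All 6 genes lie on chromosome 15. On GRCm38 with the GENCODE M21 annotation they span chr15:74747852-75111970, a stretch of 364 kb. In map order, Lynx1 lies at chr15:74747852-74753046, Ly6d at chr15:74762056-74763620, Ly6e at chr15:74955051-74959905, Ly6a at chr15:74994877-74998031, Ly6c1 at chr15:75044018-75048830 and Ly6c2 at chr15:75108158-75111970. Ly6e is on the plus strand and the other 5 are on the minus strand. The promoter regions of the 2 Ly6C genes are shown because these near copies differed so much in their counts. They are the 250 bases before each RefSeq start on GRCm38.p6, at chr15:75048838-75049087 for Ly6c1 and chr15:75111972-75112221 for Ly6c2, both read on the minus strand. Each gene has another RefSeq start further downstream (windows chr15:75048664-75048913 and chr15:75111938-75112187), which is not shown, and in the sequences the capitals mark their longest shared run, of 20 bases.
Ly6c1: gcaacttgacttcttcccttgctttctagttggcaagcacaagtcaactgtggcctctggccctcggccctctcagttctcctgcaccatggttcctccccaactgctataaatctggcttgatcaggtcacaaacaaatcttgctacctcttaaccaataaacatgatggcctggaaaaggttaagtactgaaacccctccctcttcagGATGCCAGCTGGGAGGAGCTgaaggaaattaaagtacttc
Ly6c2: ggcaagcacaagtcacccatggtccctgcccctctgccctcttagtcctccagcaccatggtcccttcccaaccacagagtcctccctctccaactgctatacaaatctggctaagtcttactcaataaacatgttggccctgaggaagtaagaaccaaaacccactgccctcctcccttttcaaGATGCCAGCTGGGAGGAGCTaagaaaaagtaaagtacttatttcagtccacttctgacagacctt
Of 216 aligned positions, 164 were identical (75.9%), and the shared run began 40 bases before the start of Ly6c1 and 65 bases before that of Ly6c2. Neither window, nor that of the other start, held AANNGAAA, a core of the element that interferon regulatory factors bind, or TTCNNNGAA, the core of the GAS element, on either strand. Of 32851 RefSeq promoter windows of the same 250 bases, 21.3% held the former and 7.02% the latter.

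Total counts were 922450 to 2923865 UMIs per sample, lowest in unstimulated cells (922450 to 1103064) and highest with CpG + IFNα (1884673 to 2923865). Levels are given as normalized CPM, which are UMI counts scaled to a common library size with TMM factors. A differentially expressed gene (DEG) had a Benjamini-Hochberg adjusted p under 0.1 in edgeR's quasi-likelihood test, corrected over 9431 genes, and a log2 fold change beyond 1 in either direction. Of the 6 genes, 5 passed the filter on low counts and Ly6c1 did not.

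Listed markers of B cells had counts in every group (8 of 8), with a summed level of 8040 to 9230 CPM in unstimulated cells, 6960 to 7870 with IFNα, 1380 to 1550 with CpG alone and 1210 to 1320 with both. With IFNα the markers diverged, as Fcer2a averaged 1230 CPM in unstimulated cells and 244 with IFNα and Cr2 412 and 81.5, while the log2 fold change was 0.17 for Cd79a, 0.19 for Cd79b and 0.08 for Ms4a1. Markers of T cells summed to at most 3.64 CPM in any sample, with Cd3g and Cd8a at 0 throughout. Of the markers of plasmacytoid dendritic cells, Siglech and Klk1 were at 0 in every sample. The 6 markers summed to 35.3 to 37.4 CPM in unstimulated cells, 36.6 to 51.7 with IFNα, 8.55 to 20.9 with CpG alone and 20.7 to 24 with both, but they moved in opposite directions. Pacsin1 averaged 31.5, 33.7, 1.45 and 1.3 CPM in that order of the groups, and Cox6a2 averaged 0.357, 4.02, 9.59 and 18.4. Of 3 endothelial markers, which bear on Ly6a, Pecam1 gave nearly all counts, and their sum was 171 to 183, 177 to 200, 57.7 to 70.6 and 43.1 to 56.9 CPM in the same order. Cdh5 had at most 3 counts in any sample, and Kdr had 0 to 13 with both stimuli and at most 2 in the other groups. In bulk RNA, fewer cells of a type and less RNA per cell cannot be told apart.

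Ly6a, the Sca-1 gene, was highest with IFNα and lowest with CpG. Unstimulated cells had 260, 375 and 336 CPM in replicates 1 to 3, and cells with IFNα had 2390, 2050 and 2400. With CpG the levels were 49.7, 68.4 and 51.4 CPM, and with CpG + IFNα they were 535, 559 and 612. The groups did not overlap in any pair, in the order CpG, unstimulated, CpG + IFNα and IFNα. Ly6a was 7.06-fold higher with IFNα than in unstimulated cells (log2 fold change 2.82, SE 0.13) and 10.1-fold higher with CpG + IFNα than with CpG (3.34, SE 0.15). CpG went with a lower level both without IFNα (5.76-fold, log2 -2.53, SE 0.15) and with it (4.01-fold, log2 -2.01, SE 0.12).

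Ly6c2, the Ly6C gene with counts, had the widest range among the members as a ratio of levels. Unstimulated cells had 9.1, 18.2 and 11.5 CPM, and cells with IFNα had 607, 587 and 775. With CpG the levels were 6.14, 2.14 and 2 CPM, which rest on 10, 3 and 4 counts, and with CpG + IFNα they were 22.9, 13.8 and 32.9. The IFNα samples stood above all others and the CpG samples below all others, whereas unstimulated cells and CpG + IFNα overlapped. Ly6c2 was 51.5-fold higher with IFNα than in unstimulated cells (log2 5.69, SE 0.23). In the presence of CpG, IFNα went with a 6.47-fold higher level (log2 2.69, SE 0.39), and cells with both stimuli stayed 29.3-fold below cells with IFNα (log2 -4.88, SE 0.19). The difference between both IFNα effects, the interaction, was -2.99 on the log2 scale (SE 0.64). CpG replicate 1, the CpG sample with the most counts of this gene, weighed on these values. Without it the interaction was -2.30 and no longer met the DEG threshold, the log2 value of IFNα beside CpG was 3.39 in place of 2.69, and that of CpG alone against unstimulated cells was -2.56 in place of -1.88.

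Monocytes carry Ly6C, so their markers were read beside Ly6c2. The summed level of 9 analysed of 12 listed monocyte, macrophage and neutrophil markers was 30.9 to 56.7 CPM in unstimulated cells, 11.6 to 21.4 with IFNα, 2.85 to 4.91 with CpG alone and 1.54 to 3.82 with both. The markers did not move together. Tyrobp, which gave most of the fall, averaged 25.2 CPM in unstimulated cells and 4.45 with IFNα, and Lyz2, Cd14 and S100a8 had 0 counts in every IFNα sample. Adgre1, the F4/80 gene of macrophages, was instead higher with IFNα, with 8, 11 and 17 counts against 1, 3 and 1. The part of such cells in the Ly6c2 counts was not tested. Plasma cells carry Ly6C too, and 5 of 6 listed markers of them summed to 255 to 380 CPM in unstimulated cells, 181 to 210 with IFNα, 186 to 205 with CpG alone and 200 to 271 with both, mostly from Irf4 and Xbp1. These markers diverged as well. In that order of the groups Irf4 averaged 188, 88.3, 127 and 179 CPM and Xbp1 101, 73.7, 66.6 and 51. Sdc1 averaged 18.9, 27.1, 1.79 and 1.12 CPM, and Prdm1 and Jchain had at most 10 counts in a sample. The part of plasma cells in the Ly6c2 counts was not tested.

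Ly6c1, the other Ly6C gene, had 2 counts in all 12 samples, 1 in IFNα replicate 2 (0.608 CPM) and 1 in CpG replicate 3 (0.499 CPM). A count of 0 allows up to 3 counts in a sample, so any difference between the groups was not detectable at this depth. Ly6c1 and Ly6c2 share part of their 3′ sequence. Of the windows of 81 bases, the read length, in the last 500 bases of the annotated coding transcripts, 16.4% of those of Ly6c1 occurred also in Ly6a or Ly6c2, and 21.7% of those of Ly6c2 occurred also in Ly6c1. For Ly6a, Ly6d, Ly6e and Lynx1 the share was 0%. How reads that fit both genes were counted is not given in the sources used here, so the division of counts between Ly6c1 and Ly6c2 is uncertain.

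Ly6e, the interferon-inducible gene, differed mainly by CpG. The levels were 3380, 3640 and 3460 CPM in unstimulated cells, 5020, 3980 and 4750 with IFNα, 1240, 1180 and 1190 with CpG alone and 1190, 1090 and 1180 with both. Both groups with CpG lay below both groups without it and overlapped each other, and the IFNα samples lay above unstimulated cells. Ly6e was 2.9-fold lower with CpG than in unstimulated cells (log2 -1.54, SE 0.11) and 3.97-fold lower with both than with IFNα (log2 -1.99, SE 0.11). IFNα alone went with a 1.31-fold higher level (log2 0.39, SE 0.11), and IFNα beside CpG with a log2 difference of -0.06 (SE 0.11).

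Ly6d and Lynx1 were both highest with CpG alone. Ly6d had 1090, 1270 and 1220 CPM in unstimulated cells, 1490, 1330 and 1430 with IFNα, 2620, 2260 and 2460 with CpG alone and 1110, 957 and 1150 with both. The 3 CpG samples stood above the other 9, the IFNα samples came next, and unstimulated cells and CpG + IFNα overlapped. Ly6d was 2.05-fold higher with CpG than in unstimulated cells (log2 1.04, SE 0.11), close to the threshold of 1, and 2.29-fold lower with both than with CpG (log2 -1.19, SE 0.11).

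Lynx1 had 43.7, 51.3 and 49.4 CPM in unstimulated cells, 73.7, 99.1 and 58 with IFNα, 133, 151 and 135 with CpG alone and 50.2, 53.1 and 47.8 with both. The CpG samples were again highest and the IFNα samples next, spread more widely than for Ly6d, and unstimulated cells and CpG + IFNα overlapped. Lynx1 was 2.89-fold higher with CpG than in unstimulated cells (log2 1.53, SE 0.16) and 2.75-fold lower with both than with CpG (log2 -1.46, SE 0.14). Each stimulus alone thus went with a higher level than in unstimulated cells, while the log2 difference of cells with both was 0.07 (SE 0.17) for Lynx1 and -0.16 (SE 0.11) for Ly6d. The difference with IFNα alone was smaller than with CpG alone and below the DEG threshold, at 0.7 (SE 0.17) for Lynx1 and 0.25 (SE 0.11) for Ly6d. Lynx1 counts per 100 Ly6d counts were 4 to 4.06 in unstimulated samples, 4.06 to 7.43 with IFNα, 5.06 to 6.67 with CpG alone and 4.17 to 5.55 with both.

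**Figure D1:**
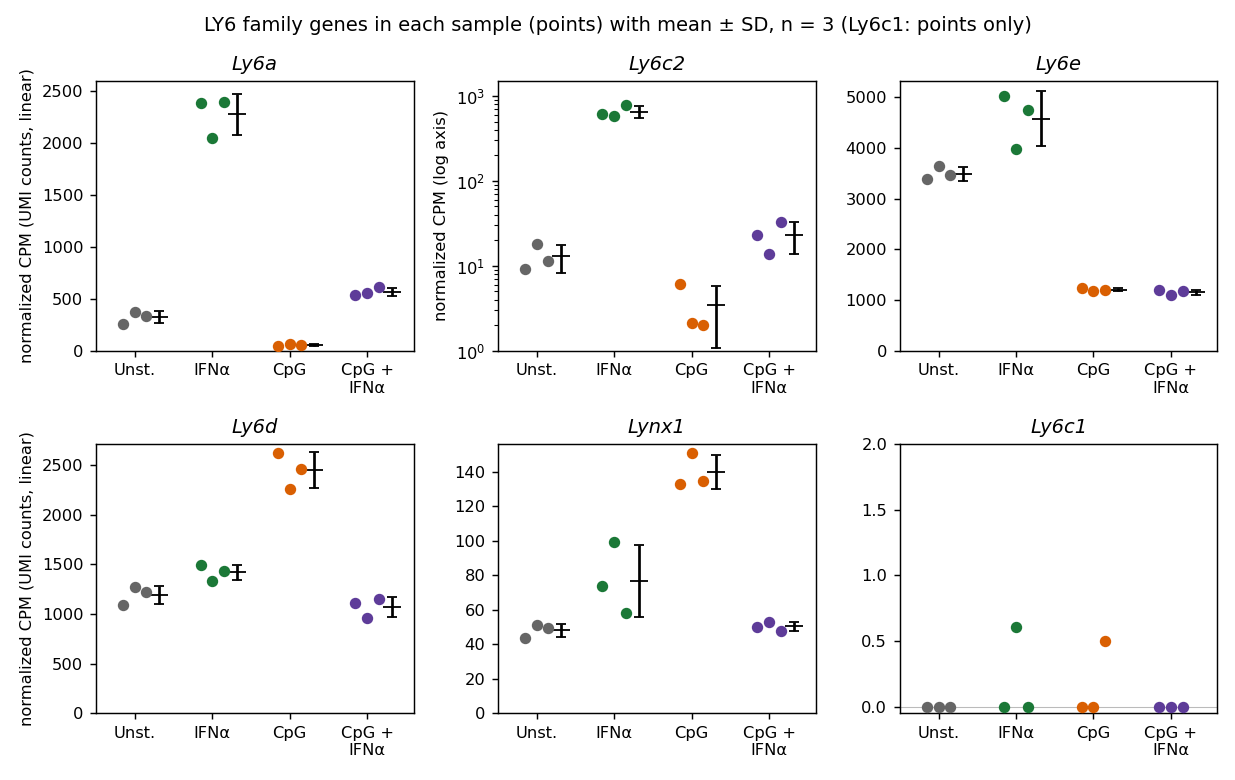
Normalized CPM of each of the 6 genes (vertical axes, linear except the log axis of Ly6c2) in the 4 groups (horizontal axis). Points are samples and bars are mean ± SD (n = 3), left out for Ly6c1. Ly6a and Ly6c2 stand highest with IFNα, Ly6d and Lynx1 with CpG alone, and Ly6e is low in both groups with CpG.

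By the DEG thresholds, IFNα against unstimulated cells called 2 of the 5 genes, both higher (Ly6a and Ly6c2), where 8.63% of all genes tested were called. CpG against unstimulated cells called all 5, with Ly6d and Lynx1 higher and Ly6a, Ly6c2 and Ly6e lower, where 45.6% of all genes were called. The call of Ly6d was lost with counts thinned to the lowest depth (0.96) and without unstimulated replicate 1 (1). CpG + IFNα against unstimulated cells called 1, Ly6e, where 45.9% of all genes were called, and it called Ly6c2 as well without unstimulated replicate 2 (1.13) or CpG + IFNα replicate 2 (1.16). Because the genes were chosen with these comparisons known, nothing is read from their shares.

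CpG + IFNα against CpG called 4 of the 5, with Ly6a and Ly6c2 higher and Ly6d and Lynx1 lower, where 4.96% of all genes were called. CpG + IFNα against IFNα called 3, all lower (Ly6a, Ly6c2 and Ly6e), where 44.3% were called. The interaction called 3, all negative (Ly6c2 -2.99, Lynx1 -2.16 and Ly6d -1.44), where 6.26% were called. These comparisons share groups and are not independent of each other.

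**Figure D2:**
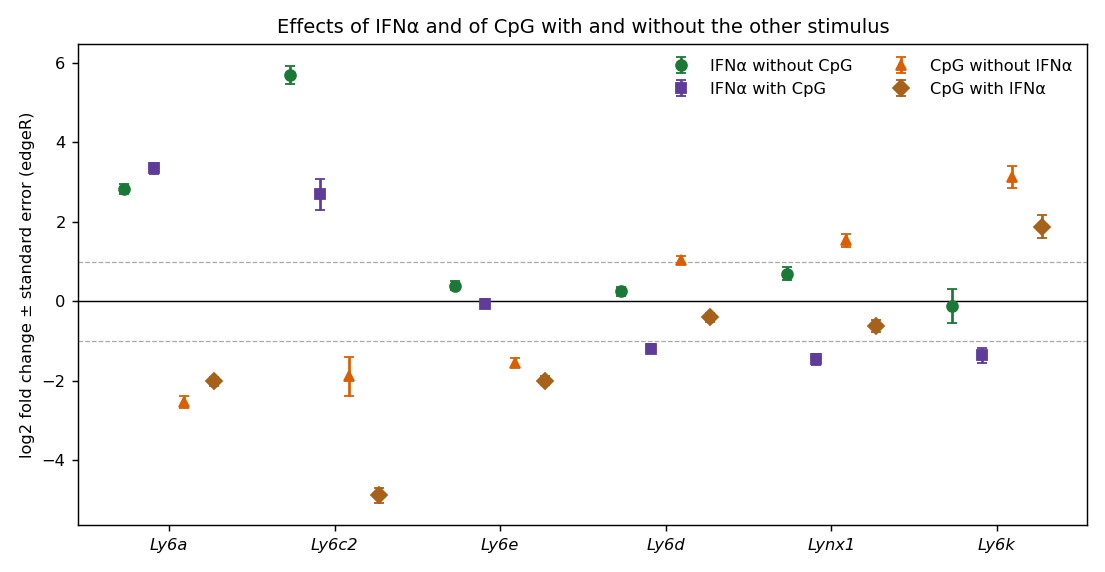
Log2 fold change (vertical axis, points with bars of ± 1 SE) of the 5 tested members and Ly6k (horizontal axis) for IFNα without and with CpG and for CpG without and with IFNα. Dashed lines mark the threshold of 1 in each direction. Ly6a and Ly6c2 lie above 0 for both effects of IFNα and below 0 for both effects of CpG, while Ly6d and Lynx1 lie above 0 for each stimulus alone and below 0 for each stimulus added to the other.

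A list of 16 textbook interferon-stimulated genes gave a scale for these values. All 16 (against 8.63% of all genes) were DEGs and higher with IFNα than in unstimulated cells, with a median log2 fold change of 4.82 (2.40 to 6.73), and all 16 were also higher DEGs with both stimuli than with CpG, where 4.96% of all genes were DEGs (median 5.17, 2.91 to 6.56). The log2 values of Ly6a, 2.82 and 3.34, lay within these ranges in both comparisons, and those of Ly6e, 0.39 and -0.06, lay below both. Ly6c2 lay within the range without CpG (5.69) and below it with CpG (2.69), though within it without CpG replicate 1 (3.39) or CpG + IFNα replicate 2 (3.02). With CpG + IFNα against IFNα, 12 of the 16 were DEGs, all lower (25.5% of all genes were DEGs and lower), with a median of -1.67 (-3.76 to -0.03), and the -4.88 of Ly6c2 lay beyond the lowest of them. With CpG against unstimulated cells, 14 of the 16 were DEGs, all lower, where 25.5% of all genes were DEGs and lower. Their median was -2.37 (-3.6 to 0.73), and Ly6a (-2.53), Ly6c2 (-1.88) and Ly6e (-1.54) lay within this range.

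Across the 12 samples, the levels of Ly6a and Ly6c2 followed each other (Pearson r 0.92 on log2 CPM), as did those of Ly6d and Lynx1 (r 0.91). These values describe 12 samples that share 4 groups, so r mostly reflects the group means. Among the genes most like Ly6a were Ifi27l2a (r 0.998) and Ddx60 (0.994), both interferon-stimulated. For Ly6c2 they were Rnf114 (0.98), Zc3hav1 (0.98), an antiviral RNA-binding protein gene, and Ifit1bl1 (0.978), of the IFIT family. With a prior count of 0.5 in place of 2 in the log2 CPM, Ddx60 and Ifit1bl1 were no longer among the 3 most alike. Those of Ly6e were Cst3 (0.996), which encodes the protease inhibitor cystatin C, Ccm2 (0.995) and the kinase gene Csnk1g3 (0.994). For Ly6d the most alike of all genes tested were Tubb5 (0.947), a tubulin gene, its neighbour Lynx1 (0.91) and Spcs3 (0.899), of the signal peptidase, and for Lynx1 they were Ly6d (0.91), Nans (0.886), of sialic acid synthesis, and Gatad1 (0.864).

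Of the other LY6 genes of the cluster, 8 of 23 listed were analysed and only Ly6k, known from testis, passed the filter. Ly6k was a DEG in CpG-stimulated cells. It had 3.64, 10.7 and 9.71 CPM in unstimulated cells, 6.05, 9.12 and 6.11 with IFNα, 90.3, 64.2 and 54.4 with CpG alone and 31.6, 26.6 and 23.6 with both. The CpG samples stood highest and the CpG + IFNα samples next, with no overlap, while unstimulated cells and IFNα overlapped. Ly6k rose 8.69-fold with CpG (log2 3.12, SE 0.28, edgeR adjusted p = 9.89e-12) and was 2.54-fold lower with both than with CpG (log2 -1.35, SE 0.19, edgeR adjusted p = 1.49e-06). IFNα alone gave -0.11 (SE 0.43, edgeR adjusted p = 0.905). With both it stayed above unstimulated cells (log2 1.77, SE 0.31, edgeR adjusted p = 7.68e-06), where the groups of Ly6d and of Lynx1 overlapped. The interaction of Ly6k was -1.24 (SE 0.48, edgeR adjusted p = 0.102), and it passed without unstimulated replicate 2 (-1.48), CpG replicate 3 (-1.41) or CpG + IFNα replicate 1 (-1.35), and with the replicate number as a block (-1.25, edgeR adjusted p = 0.0691). The strand setting of the counting is not given in the sources used here, and the antisense gene Gm17189, which overlaps Ly6k, had 1 count in all.

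The other 7 genes of that list had 1 to 60 counts in all samples together and were not tested. Ly6m had the most, with 6, 1 and 5 counts in unstimulated cells, 6, 26 and 7 with IFNα, 0 in each CpG sample and 2, 6 and 1 with both. Ly6i had 5 counts, all of them with IFNα.

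Of 28 listed genes of the LY6/uPAR domain family outside the cluster, 9 were analysed, and Plaur alone passed the filter. Plaur encodes the GPI-anchored urokinase receptor. It had 230, 144 and 132 CPM in unstimulated cells, 17.2, 42.6 and 28.2 with IFNα, 4.91, 3.56 and 3.49 with CpG alone and 4.91, 4.14 and 8.22 with both. Unstimulated cells stood above all stimulated samples, the IFNα samples came next, and both groups with CpG overlapped. Plaur fell 5.48-fold with IFNα (log2 -2.45, SE 0.22, edgeR adjusted p = 4.63e-11) and 41.8-fold with CpG (log2 -5.39, SE 0.29, edgeR adjusted p = 5.28e-17). Addition of IFNα to CpG gave 0.48 (SE 0.49, edgeR adjusted p = 0.63), from 5 to 8 counts per sample with CpG alone and 9 to 16 with both. The other 8 genes had 0 to 20 counts in all.

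Within 100 kb of the span of the 6 genes, 25 of 36 annotated genes were analysed and 8 were tested, which are the 5 LY6 members, Ly6k, the DNA-binding protein gene Jrk and the long intergenic noncoding RNA gene Gm39556. In CpG against unstimulated cells all 8 were DEGs (Ly6d not with thinned counts or without unstimulated replicate 1), where 45.6% of all genes were, and 5 of the 8 were chosen with these values known, so their signs are a description. Jrk (log2 2.48, SE 0.38, edgeR adjusted p = 9.18e-07) and Ly6k were higher with CpG, as were Lynx1 and Ly6d, while Gm39556 (-2.85, SE 0.38, edgeR adjusted p = 7.17e-08), Ly6e, Ly6a and Ly6c2 were lower. Lynx1, Ly6d and Ly6k are all on the minus strand, with Ly6d 9.0 kb upstream of Lynx1 and Ly6k 33.3 kb upstream of Ly6d, and Ly6g6g, which did not pass the filter, lies between Ly6d and Ly6k. When IFNα was added to CpG, neither Jrk (-0.25, SE 0.24, edgeR adjusted p = 0.582) nor Gm39556 (0.02, SE 0.51, edgeR adjusted p = 0.997) passed the test.

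**Figure D3:**
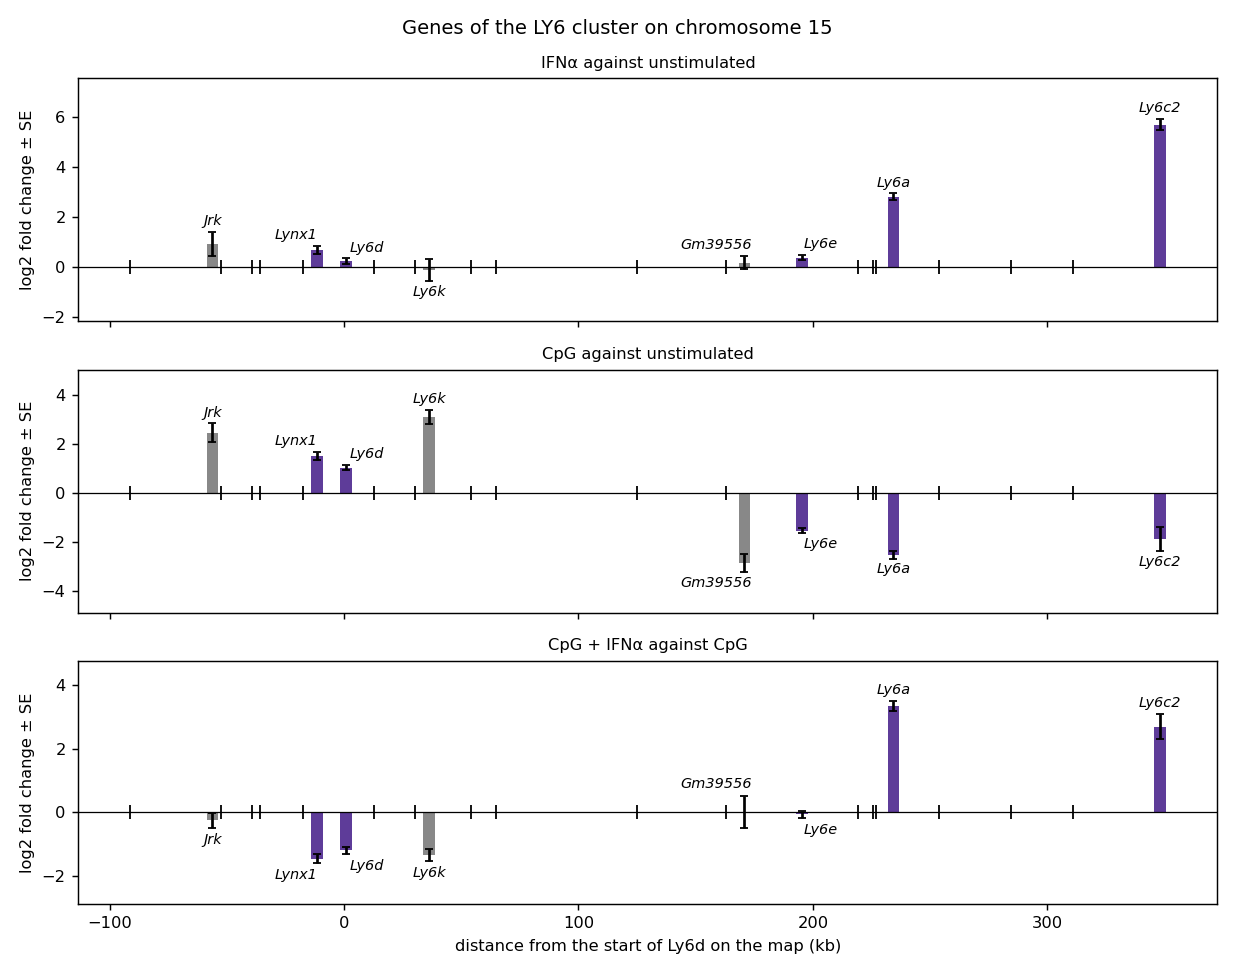
Log2 fold change (vertical axes, bars with ± 1 SE) of the 8 tested genes of the chromosome 15 cluster by their distance from the start of Ly6d in kb (horizontal axis), for IFNα and CpG against unstimulated cells and for CpG + IFNα against CpG. Purple bars are members, gray bars are other tested genes, and ticks mark analysed genes that did not pass the filter. With CpG, Jrk, Lynx1, Ly6d and Ly6k lie above 0, and Gm39556, Ly6e, Ly6a and Ly6c2 lie below it.

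Most LY6 proteins carry the GPI anchor, and the genes that make, attach and remodel it were read from a list of 35, of which 34 were analysed and 28 tested. In the 6 comparisons 1, 6, 8, 1, 7 and 1 of the 28 were DEGs, beside 8.63%, 45.6%, 45.9%, 4.96%, 44.3% and 6.26% of all genes, in the order IFNα, CpG and both against unstimulated cells, both against CpG, both against IFNα and the interaction. The median of all 9431 genes tested was -0.07 to -0.001 over these comparisons. IFNα against unstimulated cells had 1 DEG, which fell (median log2 fold change of the list -0.09), and with CpG 3 rose and 3 fell (median 0.1). With both against unstimulated cells 5 rose (Pigw, Pigf, Pigg, Pigl and Pigu) and 3 fell (Pgap1, Tmem8 and Pigyl), with a median of 0.18. The list had only 4 DEGs in this comparison with counts thinned to the lowest depth. Both against CpG had 1 DEG, which fell (median -0.01). With both against IFNα the same 5 rose and Pgap1 and Pigyl fell (median 0.17), and the interaction had 1 DEG, Dpm1, with a positive value of 1.3 (SE 0.44, edgeR adjusted p = 0.0632, median of the list -0.24). That call was lost with DESeq2 and without unstimulated replicate 1, IFNα replicate 1, CpG replicate 1, CpG replicate 3 or CpG + IFNα replicate 3.

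The 3 that rose with CpG were Pigw (log2 2.82, SE 0.36, edgeR adjusted p = 3.06e-08), which acylates the inositol of the growing anchor, and Pigf (2.03, SE 0.61, edgeR adjusted p = 0.00381) and Pigg (1.20, SE 0.46, edgeR adjusted p = 0.0217), which add ethanolamine phosphate. Counts were low in unstimulated samples, with 3 to 5 for Pigw, 1 to 2 for Pigf and 2 to 7 for Pigg. The levels of Pigg overlapped, at 1.82 to 6.18 CPM in unstimulated cells and 5.99 to 12.3 with CpG. Those that fell were Pgap1 (-2.13, SE 0.17, edgeR adjusted p = 5.35e-13), which removes the acyl chain from the inositol after attachment to the protein, Dpm1 (-1.51, SE 0.32, edgeR adjusted p = 0.000126), the catalytic subunit of the synthase of the mannose donor, and Tmem8 (-1.5, SE 0.38, edgeR adjusted p = 0.000814), a GPI phospholipase gene also called Pgap6. Pgap1 was the DEG of the list both when IFNα was added to CpG (-1.69, SE 0.23, edgeR adjusted p = 1.36e-06) and with IFNα alone (-1.17, SE 0.16, edgeR adjusted p = 5.2e-07). The count of list DEGs was 2 in the former without CpG + IFNα replicate 1, and in the latter 2 without unstimulated replicate 3 and 3 without IFNα replicate 2. Its mean was 102 ± 4.24 CPM in unstimulated cells, 44.9 ± 8.56 with IFNα, 23.1 ± 3.01 with CpG alone and 7.11 ± 0.527 with both (SD, n = 3).

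**Figure D4:**
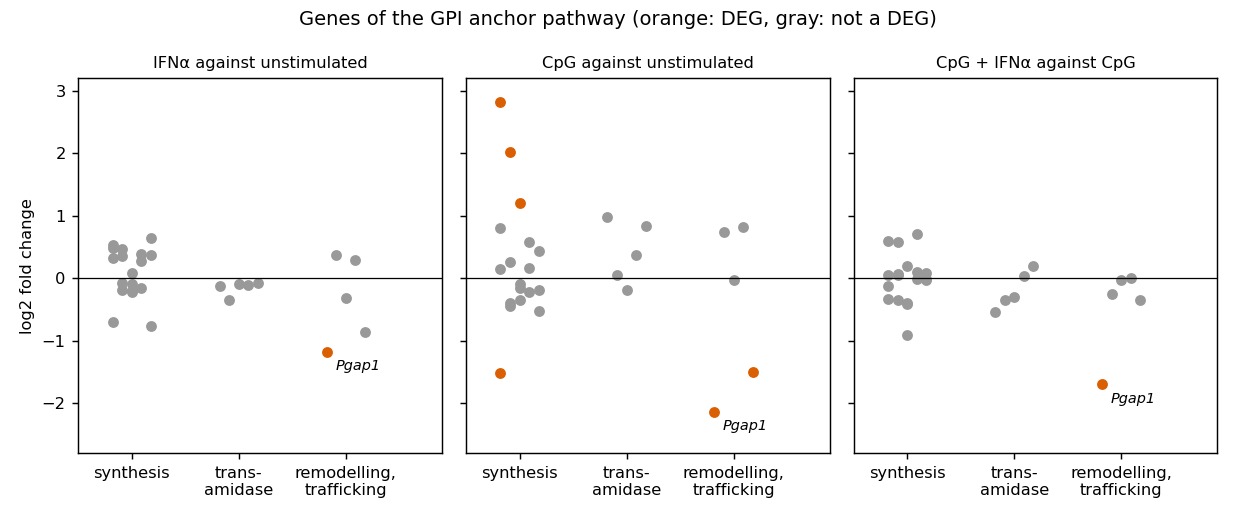
Log2 fold change (vertical axis) of the 28 tested genes of the GPI anchor list by step (horizontal axis), for IFNα and CpG against unstimulated cells and for CpG + IFNα against CpG. Each point is a gene, with DEGs in orange, other genes in gray and Pgap1 named, which lies at -1.17, -2.13 and -1.69.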

How the data were processed

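The authors deposited UMI counts per gene and sample without normalization. Per the labels and the methods, UMI-tools 1.1.2, Trim Galore 0.6.7, HISAT2 2.2.1 (GRCm38) and featureCounts 2.0.1 were used. The annotation release is not given in the sources used here, but all 22561 identifiers are in GENCODE M21, which gave positions. Every column was matched to a sample, with those named naiive taken by meaning as the Unstimulated samples, on which every comparison with unstimulated cells rests. The barcode list was not used.

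The deposited counts were tested with edgeR 4.0.16 in R 4.3.3 (TMM, filterByExpr by group, glmQLFit and glmQLFTest, 1 fit of 4 groups with 8 residual degrees of freedom). edgeR replaced the DESeq2 of the study, which was run as an alternative (DESeq2 1.42.0). The code was tested on simulated data. Replicates differed by more than counting error in all 12 pairs (chi-square per degree of freedom 1.9 to 6.31).

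The members and gene lists were chosen with earlier results of these data known. The genes named are the members, every tested gene of the LY6/uPAR lists, up to 3 GPI anchor DEGs with the largest changes in each direction in CpG against unstimulated cells and in CpG + IFNα against CpG, the 3 genes most correlated with each member (log2 CPM, prior count 2) and tested genes within 100 kb. 1 gene that falls under this rule is not reported here. GPI anchor genes in the other comparisons, the marker genes, Ly6m, Ly6i and Gm17189 were added after values were seen. Promoters were taken from RefSeq on GRCm38.p6, which matched 2 of the 6 members, and Ly6a, Ly6d, Ly6e and Lynx1 were not matched. Alternatives changed the scaling, filter, tool, fold threshold, depth, replicate block and samples.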

Additional observations from a re-analysis of the deposited data

Results flagged for a closer look

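The interaction term, which sets the IFNα effect beside CpG against that in its absence, is listed for 6 genes because it had an edgeR adjusted p under 0.1 with no threshold on its size, as it did for 13.4% of all 9431 genes tested. The DEG threshold, which also asks for a size over 1, called 3 of the members. The interaction was -2.99 on the log2 scale (SE 0.64) for Ly6c2, -2.16 (SE 0.22) for Lynx1, -1.44 (SE 0.16) for Ly6d, -0.45 (SE 0.16) for Ly6e and 0.52 (SE 0.19) for Ly6a. These 5 genes were chosen with this pattern known, so the values are a description and the adjusted p is no test of them. For Plaur, from a family list that was also drawn up with earlier results known, the interaction was 2.93 (SE 0.54, edgeR adjusted p = 0.000352). It came from a log2 fold change of -2.45 with IFNα alone and 0.48 with IFNα beside CpG. The latter rests on 5 to 8 counts per sample with CpG alone and 9 to 16 with both, so a further fall could hardly be measured. The effect without CpG is measured against unstimulated cells, whose time in culture is not given, so the interaction and a difference in culture cannot be told apart.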

How the results depend on the processing

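With DEGs defined by a log2 fold change over 2 in size, the DEGs of all genes numbered 251 with IFNα, 1677 with CpG, 1826 with both against unstimulated cells, 165 with both against CpG, 1698 with both against IFNα and 155 in the interaction. The LY6 members then numbered 1 with CpG, 0 with both against unstimulated cells and 2 with both against CpG, and the GPI anchor DEGs 0, 3, 2, 0, 1 and 0 in the order of the comparisons above. Ly6e in both against IFNα (-1.99) and Ly6d in the interaction (-1.44) lost the call as well. With each sample thinned to the lowest depth, the interaction had 364 DEGs and both against unstimulated cells had 4 GPI anchor DEGs. DESeq2 gave 0 GPI anchor DEGs in the interaction. Leaving out 1 sample gave 1 to 2 LY6 members among the DEGs of both against unstimulated cells (2 without unstimulated replicate 2 or CpG + IFNα replicate 2, with Ly6c2 at 1.13 and 1.16), 2 to 3 in the interaction, 1 to 3 GPI anchor DEGs with IFNα (2 without unstimulated replicate 3, 3 without IFNα replicate 2), 1 to 2 with both against CpG (2 without CpG + IFNα replicate 1) and 0 to 1 in the interaction (Dpm1, lost without unstimulated replicate 1, IFNα replicate 1, CpG replicates 1 or 3 or CpG + IFNα replicate 3).

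Signs turned for 4 small values. Ly6e in both against CpG was 0 without the filter, Lynx1 in both against unstimulated cells was -0.07 and Plaur in both against CpG was -0.07 with thinned counts, and Ly6k with IFNα ranged from -0.46 to 0.13 when a sample was left out. Ly6d with CpG was 0.96 with thinned counts and 1 without unstimulated replicate 1, under the DEG threshold. The replicate numbers did not pair the samples by the rule that every pair exceed 0.1. Correlations of deviations were -0.065 to 0.205 over 18 same-numbered pairs, 5 of them over 0.1, and -0.203 to 0.056 over 36 other pairs, and the WT1 to WT3 names may mark something shared. With the number as a replicate block, the interaction of Ly6k was -1.25 (edgeR adjusted p = 0.0691, against -1.24 and 0.102 without it), and no other call changed among the 5 tested members, Plaur and Ly6k, the genes for which it was run one by one. Of 831 values of these 7 genes, 804 kept direction and call. Depth limited Ly6c1, the CpG values of Ly6c2, the values of Plaur in both groups with CpG and the untested family members.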
